A study of Bos taurus and Bos indicus with 6 samples.

Results

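Transcripts of chemokines and of their receptors were measured in blood leukocytes of 3 Brahman and 3 Holstein (Holstein-Friesian) cattle, all under a heavy challenge with the tick Rhipicephalus microplus. The members are the probe sets of a bovine expression array whose annotation gives exactly 1 gene symbol and whose symbol marks a CC, CXC or XC chemokine or a receptor for one. They were 43 probe sets of 33 genes, out of 24016 tested probe sets, of which 13292 had 1 gene symbol. In all, 35 probe sets belonged to 26 ligand genes and 8 to 7 receptor genes. Holstein arrays are annotated as Bos taurus and Brahman arrays as Bos indicus. All animals were female and 6 months old, and no untreated or tick-free animals were analysed here, so the breeds' difference without ticks is part of every value. Blood was taken into EDTA, the red cells were lysed and RNA of the whole white cell pellet was hybridised to 1 array per animal, with no sorting, pooling or culture stated. Whether sequence differences between the breeds affect single probes was not tested. Where a gene has several probe sets, they are numbered in the order of their identifiers.

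Chemokines are small secreted proteins that guide leukocytes along concentration gradients. They act on receptors with membrane-spanning helices that couple to inhibitory G proteins, and the combination of receptors on a leukocyte decides which tissues it can enter. CC and CXC chemokines are named for the spacing of their first cysteines. Inflammatory members are made at sites of injury or infection, such as a tick bite, while homeostatic members direct the traffic of cells through lymphoid organs and epithelia. Blood leukocytes carry the receptors and, once activated, make several of the ligands themselves.

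The comparison asks which of these transcripts differed between the breeds under tick challenge. Values are log2 expression values, in which 1 unit is a 2-fold difference, and differences are Brahman minus Holstein. A probe set is called when its limma p-value, adjusted by Benjamini-Hochberg over all 24016 probe sets, is under 0.05. None of the 43 members was called, where 33 of all probe sets were (0.137%), and the lowest adjusted p of a member was 0.189. In the words used below a member is therefore higher or lower in value only, with its size and spread. At an unadjusted p under 0.05 there were 6 members higher in Brahman (14.0% of members, against 7.12% of all probe sets) and 5 lower (11.6%, against 6.47%). Without overlap between the breeds, 7 members were higher in Brahman (16.3%, against 11.7% of all probe sets) and 4 were lower (9.3%, against 8.37%). With the mean of 18 hybridisation spike-in controls as a covariate, the count at an unadjusted p under 0.05 was 5 rather than 11, and it was 7 without Brahman 1. Over all probe sets that share was 13.6%, and it was 9.99% and 9.84% in those fits. The count without overlap was 11 with all animals and 18 without Brahman 2, Holstein 1 or Holstein 3, where fewer animals have to be separated. The share of all probe sets without overlap is not given for those fits, so the rise is not a result about the members.

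The differences had no common direction among the ligands, of which 20 probe sets had a positive and 15 a negative difference. All 8 receptor probe sets had a positive difference, with a median of 0.23, against 0.031 for the ligands, 0.070 for all members and 0.023 for all tested probe sets. The receptor count was 7 of 8 with the spike-in covariate, where CCR9 was at -0.15. It was also 7 of 8 without Brahman 1, Brahman 2, Holstein 1 or Holstein 3, where CCR3 (2) was at -0.027, -0.076, -0.059 and -0.24 in that order. With each array centred on its median, or quantile-normalised again, all 8 stayed positive. The ligand median turned to -0.078 with the spike-in covariate, to -0.0026 with quantile normalisation, to -0.0037 without Holstein 2 and to -0.15 with only probe sets above the median level, so it has no stable sign.

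**Figure D1:**
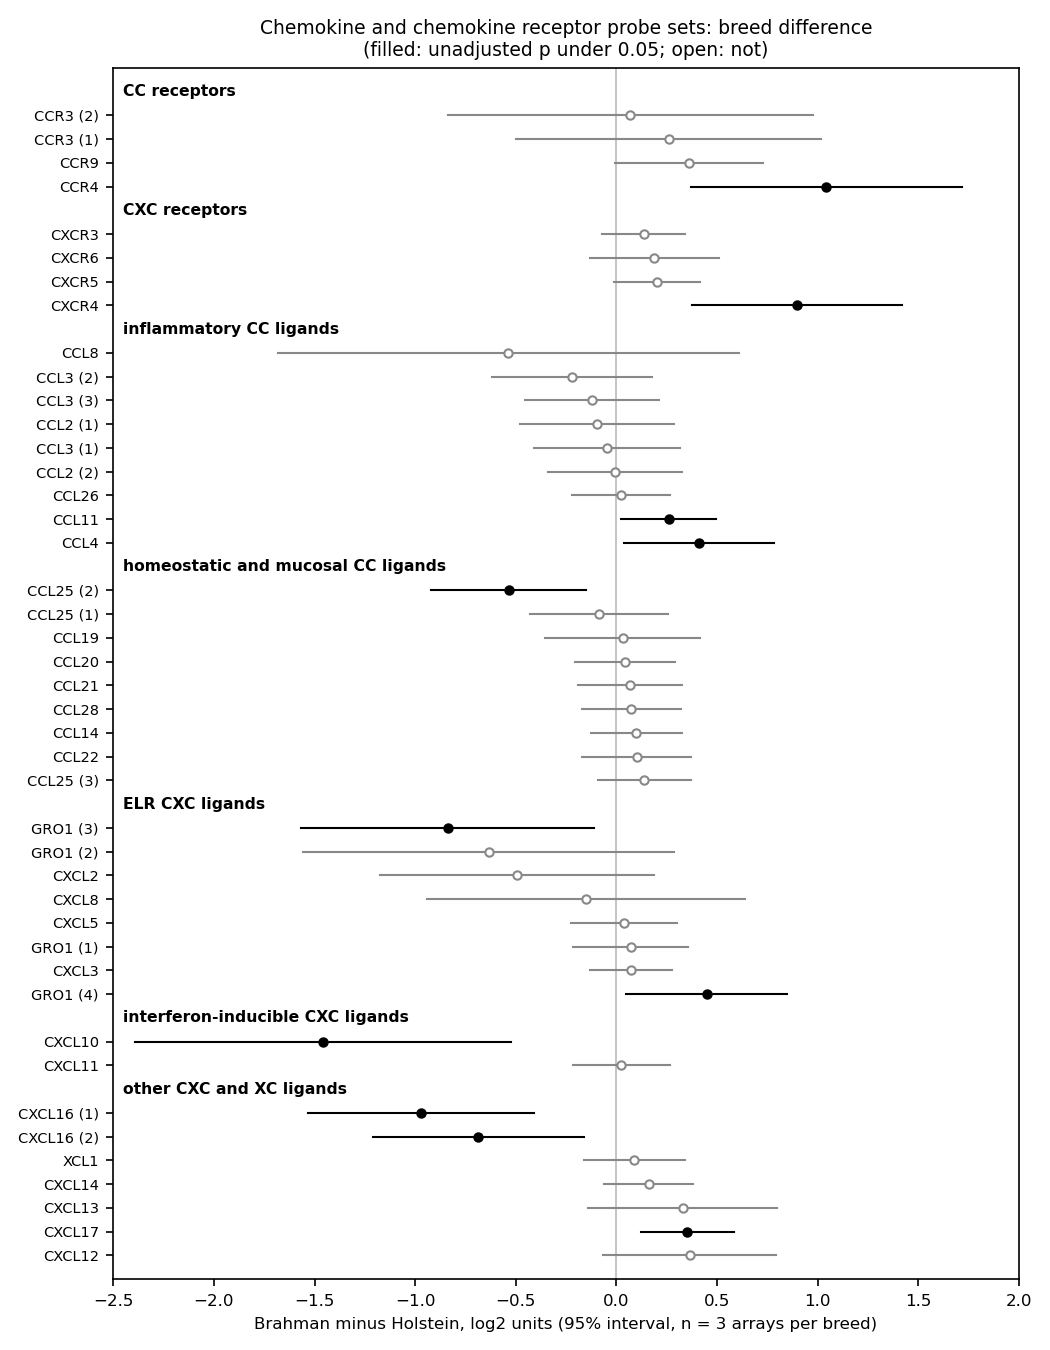
Brahman minus Holstein difference of each of the 43 probe sets in log2 units on the horizontal axis, grouped by role on the vertical axis. Points are limma estimates, lines are 95% intervals from 3 arrays per breed, and filled points have an unadjusted p under 0.05; numbers in brackets separate probe sets of 1 gene. All 8 receptor points lie right of 0 in this fit (CCR9 does not with the spike-in covariate, nor CCR3 (2) without some of the animals), while CXCL10 and both CXCL16 probe sets lie furthest left of 0 with intervals that exclude it, together with probe set 3 of GRO1.

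CXCR4 and CCR4 had the largest differences among the receptors. CXCR4 is the receptor of CXCL12 and retains leukocytes in bone marrow and lymphoid tissue. Its probe set (Entrez gene 281736) read 9.30, 9.19 and 8.67 in Holstein 1, 2 and 3 and 9.64, 9.89 and 10.34 in Brahman 1, 2 and 3. Every Brahman animal was above every Holstein animal, with Holstein 3 lowest and Brahman 3 highest. The means were 9.06 ± 0.34 in Holstein and 9.96 ± 0.36 in Brahman (SD, n = 3 each). The difference of 0.90 (95% interval 0.38 to 1.42) is a 1.86-fold higher value in Brahman, with an adjusted p of 0.190 in limma. It kept an unadjusted p under 0.05 in 15 of 15 alternative fits, and ran from 0.70 to 1.06 with each animal left out. The adjusted p in limma ran from 0.141 to 0.484 over these fits. All of them reuse the same arrays, and several leave the difference unchanged, so they are no independent support.

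CCR4 binds CCL17 and CCL22 and is carried by type 2 helper, regulatory and skin-homing T cells. Its probe set (Entrez gene 408019) read 7.06, 7.38 and 7.44 in the Holstein animals and 7.63, 8.81 and 8.57 in the Brahman animals. The breeds did not overlap, but Brahman 1 was only slightly above the highest Holstein animal, and the other Brahman animals were more than 1 unit above it. Means were 7.29 ± 0.20 and 8.34 ± 0.62 (SD, n = 3 each), a difference of 1.04 (95% interval 0.37 to 1.72), or 2.06-fold. The adjusted p in limma was 0.216, and the unadjusted p stayed under 0.05 in 15 of 15 alternative fits of the same arrays. Over these fits the adjusted p in limma ran from 0.0725 to 0.458. The difference was 1.40 without Brahman 1 and 0.81 without Brahman 2. CCL22, the ligand measured for this receptor, differed by 0.10 (95% interval -0.17 to 0.37), at 5.51 ± 0.08 in Holstein and 5.61 ± 0.18 in Brahman.

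The other receptors showed smaller differences. CXCR5, which guides B cells and follicular helper T cells into follicles, read 7.94, 7.86 and 7.82 in Holstein and 7.97, 8.11 and 8.15 in Brahman. The breeds did not overlap, by a narrow gap, and the difference was 0.20 (95% interval -0.013 to 0.42, adjusted p = 0.391 in limma). CXCR3, the receptor of the interferon-inducible ligands on type 1 T cells and NK cells, read 7.83 to 7.89 in Holstein and 7.92 to 8.08 in Brahman. It too was separated without overlap, with a difference of only 0.14 (95% interval -0.070 to 0.34). CCR9, a receptor of gut-homing lymphocytes, differed by 0.36 (95% interval -0.0090 to 0.73), and Holstein 1 at 6.01 overlapped the Brahman range of 5.88 to 6.21. CXCR6, the receptor of CXCL16, differed by 0.19 (95% interval -0.13 to 0.51), and 5 of the 6 animals lay between 7.74 and 7.85 while Holstein 3 read 7.29.

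CCR3, the eotaxin receptor of eosinophils and basophils, varied more between animals than between breeds. Of its probe sets (Entrez gene 408018), CCR3 (2) read 9.48, 10.63 and 9.11 in Holstein and 10.00, 10.10 and 9.33 in Brahman. CCR3 (1) read 8.33, 9.15 and 7.98 in Holstein and 8.87, 9.10 and 8.27 in Brahman. In both, Holstein 2 was the highest and Holstein 3 the lowest of all animals, and Brahman 1 and 2 lay well above Brahman 3. In the same order the differences were 0.070 (95% interval -0.84 to 0.98) and 0.26 (95% interval -0.50 to 1.02). The within-breed SD of CCR3 (2) and CCR3 (1) was 0.63 and 0.52, exceeded by 1.04% and 2.05% of all probe sets. Of the eosinophil and basophil markers, 3 of 10 were measured, CCR3 among them. HDC, which makes histamine, had a mean below 5.08, the lower quartile of probe set means, and the IgE receptor chain gene FCER1A differed by 0.29 (unadjusted p = 0.0451, adjusted p = 0.357 in limma).

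The receptors are carried by different leukocytes, and in bulk RNA fewer cells of a type cannot be told apart from less RNA per cell. Of 13 T cell markers 12 were measured, and 11 had a positive difference, 9 of these with an unadjusted p below 0.05 and 0 called. Their mean level was 9.66 to 9.86 in Holstein and 10.08 to 10.25 in Brahman, without overlap, and none was below the lower quartile. B cell markers, of which 5 of 9 were measured, averaged 9.91 to 10.05 in Holstein and 10.08 to 10.22 in Brahman, but the list had no common direction. BLK and CR2 differed by 0.97 and 0.35, while CD79A, MS4A1 and BLNK differed by -0.23, -0.14 and -0.11, and the median was -0.11. NK and cytotoxic markers (8 of 9 measured) averaged 7.52 to 7.63 in Holstein and 7.77 to 8.41 in Brahman. Only the granzyme B gene GZMB was called, at 2.51 (adjusted p = 0.0264 in limma), and the median of the list was 0.15. KLRD1 and KLRK1 differed by 0.90 and 0.78, KLRB1, NCR1, GNLY and NKG7 by 0.20, 0.095, 0.087 and 0.00015, and the perforin gene PRF1 by -0.60. The part of these cells in the differences of CXCR4, CCR4, CXCR5 and CXCR3 was not tested.

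**Figure D2:**
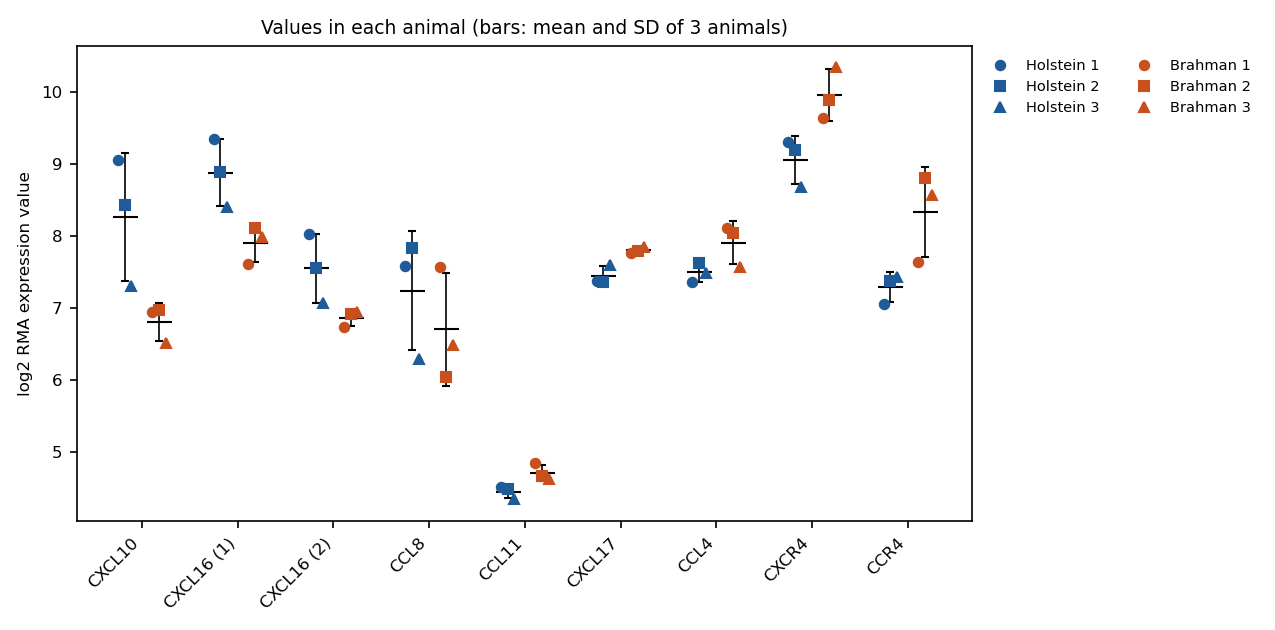
The log2 RMA value of each animal (vertical axis) for 9 probe sets of CXCL10, CXCL16, CCL8, CCL11, CXCL17, CCL4, CXCR4 and CCR4, ordered by breed difference. Blue marks are Holstein and orange marks Brahman animals, and black bars show the mean and SD of 3 animals. The breeds are separated for all but CCL8 and CCL4, and the Holstein values of CXCL10 span 7.31 to 9.06 while the Brahman values span 6.51 to 6.97.

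Among the ligands, CXCL10 and CXCL16 had lower values in Brahman. CXCL10 is made in response to interferons and attracts CXCR3-bearing T cells and NK cells. Its probe set (Entrez gene 615107) read 9.06, 8.43 and 7.31 in Holstein 1, 2 and 3 and 6.94, 6.97 and 6.51 in Brahman 1, 2 and 3. The breeds did not overlap, but Holstein 3 lay nearer to the Brahman animals than to Holstein 1 or 2. Means were 8.26 ± 0.89 in Holstein and 6.81 ± 0.26 in Brahman (SD, n = 3 each). The difference of -1.46 (95% interval -2.39 to -0.52), the largest in size of any member, is a 2.75-fold higher value in Holstein (adjusted p = 0.214 in limma). Without Holstein 3 the difference was -1.94 and CXCL10 was called, with an adjusted p of 0.04996 in limma, the only call of a member in any alternative fit. In that fit 55 of all 24016 probe sets were called, against 33 with all animals. Over all probe sets, the correlation of Holstein 3 was 0.987 and 0.988 with Holstein 1 and 2, and 0.988, 0.989 and 0.987 with Brahman 1, 2 and 3. Its nearness to Brahman is thus not particular to CXCL10. Without Holstein 1 the CXCL10 difference was -1.06. The adjusted p over its 15 alternatives ran from 0.04996 to 0.498.

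CXCL11, which lies next to CXCL10 on the ARS-UCD2.0 assembly and is induced by the same interferons, read 3.26 to 3.53 in the 6 animals. These values are far below that quartile, so they are not shown to be above background, and the difference of 0.025 (95% interval -0.22 to 0.27) is no measure of the gene. A probe set named for CXCL9, the other ligand of this group, was not analysed here.

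CXCL16 is a chemokine made as a membrane-anchored protein by monocytes, macrophages and dendritic cells, which also takes up oxidised lipoprotein and binds CXCR6. Both of its probe sets (Entrez gene 511671) gave lower values in Brahman. CXCL16 (1) read 9.34, 8.88 and 8.41 in Holstein and 7.61, 8.12 and 7.99 in Brahman. CXCL16 (2) read 8.03, 7.55 and 7.07 in Holstein and 6.74, 6.92 and 6.94 in Brahman. On both, the breeds did not overlap, Holstein 1 was the highest animal and Brahman 1 the lowest, and Holstein 3 was the Holstein animal nearest to Brahman. The differences were -0.97 (95% interval -1.53 to -0.41, adjusted p = 0.189 in limma) and -0.69 (95% interval -1.21 to -0.16, adjusted p = 0.274 in limma). These are 1.96-fold and 1.61-fold higher values in Holstein. With the spike-in covariate they were -1.14 and -0.91, with unadjusted p-values of 0.0501 and 0.0780.

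Within Holstein, CXCL10 and both CXCL16 probe sets were highest in Holstein 1 and lowest in Holstein 3, and so were the 3 probe sets of CCL3. Other members had the same order within Holstein, among them CXCR4 and CXCR3, which were higher in Brahman. The order is thus not particular to these ligands. Monocyte markers, 4 of 9 measured, averaged 8.07 to 8.38 in Holstein and 8.03 to 8.25 in Brahman, with overlap. The markers themselves differed in both directions, with CD14 at -0.94 and VCAN at 0.92, and none lay below the lower quartile. Dendritic cell markers, 3 of 7 measured, averaged 8.06 to 8.27 in Holstein and 7.83 to 8.05 in Brahman. The breeds did not overlap, but Holstein 3 at 8.056 and Brahman 3 at 8.053 nearly met, and CD1B was below the lower quartile. All 3 were lower in Brahman and 0 were called. IRF8 and TCF4 differed by -0.30 and -0.38 (unadjusted p = 0.0181 and 0.0342, adjusted p = 0.274 and 0.328 in limma), and CD1B by -0.085. The part of these cells in the CXCL10 and CXCL16 differences was not tested.

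Inflammatory CC ligands gave no common direction, with 3 positive and 6 negative differences over 9 probe sets of 6 genes and a median of -0.047. CCL4 (Entrez gene 414347), a ligand of monocyte and T cell receptors that activated lymphocytes and monocytes release, read 7.37, 7.62 and 7.49 in Holstein and 8.11, 8.04 and 7.56 in Brahman. Brahman 1 and 2 were above all Holstein animals and Brahman 3 was within their range. The difference was 0.41 (95% interval 0.040 to 0.79, adjusted p = 0.328 in limma), and it ran from 0.31 without Brahman 1 to 0.58 without Brahman 3. CCL3, a close relative encoded near CCL4, had differences of -0.047, -0.22 and -0.12 on its 3 probe sets, each with an interval that spans 0. Brahman 1, the animal with the highest CCL4 value, also had the highest mean of NK and cytotoxic markers (8.41). Brahman 2, with the next highest CCL4 value (8.04), had the lowest Brahman mean of these markers (7.77). Brahman 3, with the lowest Brahman CCL4 value, lay between them in that mean. The part of these cells in the CCL4 difference was not tested.

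CCL8 (Entrez gene 281044), a monocyte attractant, had the widest spread among the members. It read 7.58, 7.84 and 6.30 in Holstein and 7.57, 6.05 and 6.49 in Brahman. Holstein 1, Holstein 2 and Brahman 1 lay close together and the other animals were at least 1 unit lower, so the groups of values cut across breed. The within-breed SD was 0.80, exceeded by 0.433% of all probe sets. The difference was -0.54 (95% interval -1.68 to 0.61, adjusted p = 0.677 in limma), and ran from -1.01 without Holstein 3 to -0.21 without Brahman 2. CCL11 and CCL2 directly follow CCL8 on the assembly. CCL2 (1) also had Holstein 1, Holstein 2 and Brahman 1 above the other animals, but by a narrow gap. It read 5.21, 5.08 and 4.96 in Holstein and 5.30, 4.68 and 4.98 in Brahman, with a mean below the lower quartile. CCL2 (2), at 4.76, 4.71 and 5.06 in Holstein and 4.93, 4.60 and 4.99 in Brahman, and CCL11 did not show this pattern. CCL11, the eotaxin that attracts eosinophils, read 4.35 to 4.52 in Holstein and 4.63 to 4.84 in Brahman, and CCL2 read 4.60 to 5.30 over both of its probe sets. CCL11 differed by 0.26 (95% interval 0.025 to 0.50, adjusted p = 0.330 in limma), but it lies below the lower quartile, so its level is not shown to be above background. CCL26, another eotaxin, differed by 0.023 (95% interval -0.22 to 0.27).

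The homeostatic and mucosal CC ligands had 9 probe sets of 7 genes, 7 of them with a positive difference, and a median of 0.067. CCL19 and CCL21, the neighbouring genes whose products draw T cells and dendritic cells into lymph nodes, differed by 0.031 and 0.067. CCL20, CCL28 and CCL14 differed by 0.042, 0.075 and 0.099. All of these intervals span 0, the widest being that of CCL19 (-0.35 to 0.41). CCL25 (Entrez gene 615986), the ligand of CCR9 in thymus and gut, was the exception, and its probe sets disagreed.

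CCL25 (2) read 6.29, 6.37 and 6.03 in Holstein and 5.55, 6.03 and 5.51 in Brahman. Holstein 3 and Brahman 2 met at the same value of 6.03, and the other Brahman animals were lower than every Holstein animal. Its difference was -0.53 (95% interval -0.92 to -0.15, adjusted p = 0.255 in limma). CCL25 (1) differed by -0.086 (95% interval -0.43 to 0.26), and CCL25 (3), which had the highest values of the 3, by 0.14 (95% interval -0.093 to 0.37). The array therefore gives no single direction for CCL25, and which probe set measures the gene was not tested. The ending _s_at marks a probe set whose probes match more than 1 transcript of the array's design.

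The ELR CXC ligands attract neutrophils, the most mobile granulocytes, and CXCL8, CXCL5, CXCL3 and GRO1 lie close together on the assembly. CXCL8, known as interleukin 8, read 8.19, 8.52 and 7.62 in Holstein and 7.29, 8.05 and 8.54 in Brahman. The breeds overlapped throughout, with the highest and the lowest value both in Brahman, and the difference was -0.15 (95% interval -0.94 to 0.64). CXCL2 read 6.81, 5.83 and 6.54 in Holstein and 5.46, 5.93 and 6.30 in Brahman, a difference of -0.49 (95% interval -1.17 to 0.19). CXCL3 and CXCL5 read 3.21 to 3.53, far below the lower quartile.

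GRO1 (Entrez gene 281212), the gene of the neutrophil attractant also listed as CXCL1, had 4 probe sets that did not agree. GRO1 (4) read 7.62, 7.01 and 7.16 in Holstein and 7.55, 7.87 and 7.73 in Brahman, with Holstein 1 inside the Brahman range. It differed by 0.45 (95% interval 0.050 to 0.85, adjusted p = 0.323 in limma), by 0.63 without Holstein 1 and by 0.0088 with the spike-in covariate. GRO1 (3) read 5.81, 4.66 and 4.78 in Holstein and 3.88, 4.37 and 4.48 in Brahman, with every Brahman animal below every Holstein animal. It differed by -0.84 (95% interval -1.57 to -0.11, adjusted p = 0.315 in limma), by -0.47 without Holstein 1 and by -1.55 with the spike-in covariate. GRO1 (2) differed by -0.63 (95% interval -1.56 to 0.29) and by -0.16 without Holstein 1, and GRO1 (1) by 0.071 (95% interval -0.21 to 0.36). Probe sets 1, 2 and 3 lie below the lower quartile on average. The ending _x_at marks probes shared with other sequences, and GRO1, CXCL2 and CXCL3 are close relatives, so the values of this family are uncertain and no direction for GRO1 follows from the array. Neutrophil markers, 5 of 11 measured, averaged 10.15 to 10.39 in Holstein and 10.26 to 10.83 in Brahman, with overlap.

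**Figure D3:**
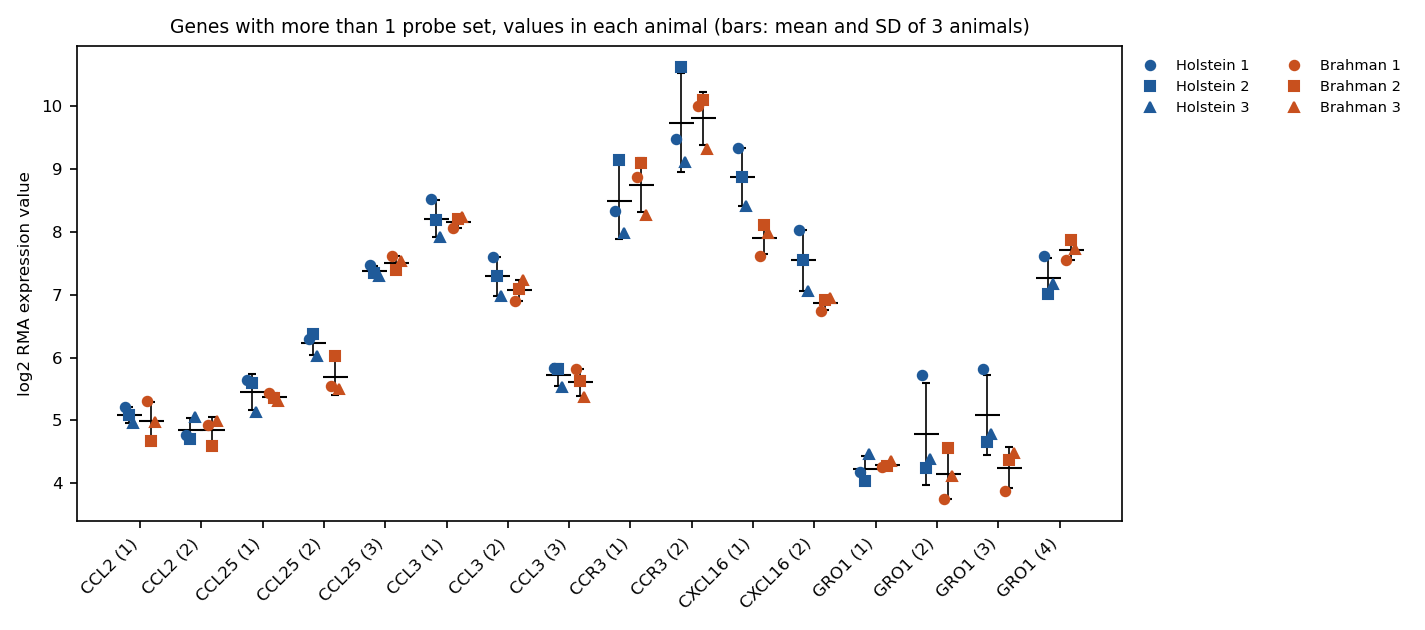
The log2 RMA value of each animal (vertical axis) for the 16 probe sets of the 6 genes with more than 1 probe set; blue marks are Holstein and orange marks Brahman animals, and black bars are the mean and SD of 3 animals. The probe sets of CXCL16 order the breeds alike, those of GRO1 and CCL25 do not, and both CCR3 probe sets are highest in Holstein 2.

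Of the other CXC and XC ligands, CXCL17 had a small difference with little spread. CXCL17 (Entrez gene 788717) is a mucosal chemoattractant of monocytes and dendritic cells. It read 7.38, 7.36 and 7.60 in Holstein and 7.76, 7.80 and 7.84 in Brahman, without overlap. The difference of 0.35 (95% interval 0.12 to 0.58, adjusted p = 0.218 in limma) ran from 0.31 to 0.43 with each animal left out. Probe sets named for liver, muscle and epithelial genes had means from 4.93 (ACTA1) to 11.95 (MYH7), with KRT5 at 7.69. The CXCL17 mean of 7.62 lies in that range, so its level does not by itself show that CXCL17 was measured. CXCL12, the ligand of CXCR4, which stromal cells make, differed by 0.37 (95% interval -0.064 to 0.80) and overlapped between breeds. CXCL13, the ligand of CXCR5, read 3.40 to 3.54 in 5 animals and 4.25 in Brahman 3, below the lower quartile in all of them. Its breeds did not overlap, but the difference of 0.33 (95% interval -0.14 to 0.80) came mostly from that animal. CXCL14 and XCL1, the lymphotactin released by activated T and NK cells, differed by 0.16 and 0.090, with intervals that span 0.

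The differences of ligands and their receptors can be set side by side. For CXCL10 and CXCR3 the differences were -1.46 and 0.14, for CXCL16 (1) and CXCR6 they were -0.97 and 0.19, and for CCL22 and CCR4 they were 0.10 and 1.04. For CXCL12 and CXCR4 they were 0.37 and 0.90, and for CXCL13 and CXCR5, where the ligand lies below the lower quartile, 0.33 and 0.20. CCL11, also below that quartile, was at 0.26, and the CCR3 probe sets were at 0.26 and 0.070. All 8 receptor probe sets had a positive difference in this fit, so the sign within a pair only repeats the sign of the ligand. The intervals of CXCR3, CXCR6, CXCR5, both CCR3 probe sets, CCL22, CXCL12 and CXCL13 span 0, so their signs are uncertain. For CCL25 and CCR9 no sign can be set, since the CCL25 probe sets differed among themselves. The difference between a ligand's value and its receptor's was not tested.

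The members varied among animals more than a typical probe set. Their median within-breed SD was 0.22, against 0.15 over all tested probe sets, and 7 of 43 exceeded 0.5, where 2.35% of all probe sets did. These 7 were the probe sets of CCL8, CXCL10, CXCL8, both of CCR3 and 2 of GRO1. The 95% interval of a member's difference therefore reached from 0.20 to 1.15 log2 units on either side of the estimate, with a median of 0.36. For the 12 members below the lower quartile a difference could not be judged, since their values are not shown to be above background.

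Leaving out 1 animal moved several of these differences. CXCL10, CXCL16 (1), CXCR4, CCR4, CXCL17 and CCL25 (2) kept an unadjusted p under 0.05 in all 6 such fits, CXCL16 (2) in 5, GRO1 (3) in 5, CCL11 in 3 and CCL4 and GRO1 (4) in 2. These probe sets were named for that p with all 6 animals, and the fits reuse the same arrays. Without Holstein 1 the GRO1 (3) and CXCL16 (2) differences shrank to -0.47 and -0.44.

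**Figure D4:**
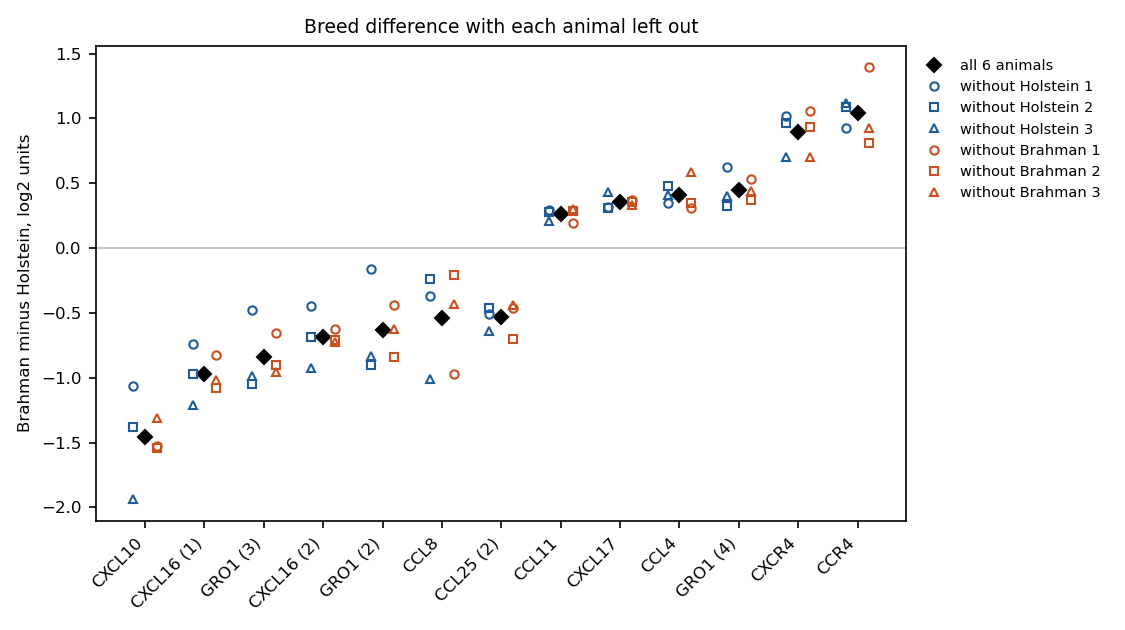
Breed difference in log2 units (vertical axis) of the 13 probe sets with an unadjusted p under 0.05 or a difference of at least 0.5 in size, for all 6 animals (black diamonds) and with each animal left out (open marks, blue for a Holstein and orange for a Brahman animal). No mark crosses 0, and CXCL10 ranges from -1.94 without Holstein 3 to -1.06 without Holstein 1.

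The genes that carry and regulate chemokine signals were taken from lists of 86 symbols, 48 of them measured with the brightest probe set of each gene. Limma called 0 of the 48, with 3 higher and 3 lower in Brahman at an unadjusted p under 0.05, near the share of all probe sets (7.12% higher and 6.47% lower), and their median difference was -0.015. These counts were 0 and 6 with the spike-in covariate, 0 and 5 without Brahman 2 or without Holstein 2, 2 and 7 without Holstein 3, and 2 and 6 with each array centred on its median. The share of all probe sets at that p, in either direction, moved as well, from 13.6% to 9.99% with the spike-in covariate, 10.9% and 10.6% without Brahman 2 and without Holstein 2, 16.0% without Holstein 3 and 13.1% with centring. The inhibitory G protein subunit gene GNAI1 read 6.26, 6.50 and 5.79 in Holstein and 5.12, 4.69 and 5.11 in Brahman, without overlap. It differed by -1.21 (SE 0.20, adjusted p = 0.0956 in limma). Its mean over all animals, 5.58, lay above the lower quartile of 5.08. The Brahman mean of 4.97 lay below it, so the Brahman level is not shown to be above background. Without Holstein 3 GNAI1 was called at -1.41 (adjusted p = 0.04996 in limma), in a fit that called 55 of all probe sets rather than 33. The related subunit genes GNAI2 and GNAI3 differed by 0.068 and -0.076. RGS1, which shortens chemokine receptor signals in lymphocytes, differed by 0.80 (SE 0.32), with Holstein 1 at 8.03 inside the Brahman range of 7.84 to 8.82. GRK3, a kinase that desensitises receptors such as CXCR4, differed by -0.63 (SE 0.27).

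Among 17 measured signal carriers of cell movement, the GTPase gene RHOA had the smallest p. Its values were 11.54, 11.56 and 11.53 in Holstein and 11.23, 11.08 and 11.19 in Brahman, a difference of -0.38 (SE 0.086, adjusted p = 0.170 in limma) with little spread in either breed. RAC1 and VAV1 differed by -0.27 and -0.22. S1PR1, the sphingosine-1-phosphate receptor that lets lymphocytes leave lymph nodes, differed by 0.85 on 1 probe set (SE 0.33) and by 0.61 on the other (SE 0.20), with adjusted p-values of 0.335 and 0.275 in limma. LTB4R and PTGDR2, receptors of leukotriene B4 and prostaglandin D2, differed by -0.12 and -0.084. All 4 measured atypical receptors, which bind chemokines without the usual signal, had positive differences, led by ACKR3 at 0.23 (SE 0.090), ACKR1 at 0.18 and ACKR4 at 0.085, but with the spike-in covariate ACKR1, ACKR2 and ACKR4 were at -0.12, -0.11 and -0.028. Other chemoattractant ligands were negative in 4 of 4, with MIF at -0.38 (SE 0.13), the platelet chemokine PF4 at -0.60 (SE 0.26) and RARRES2 at -0.12, but with the spike-in covariate PF4 and HMGB1 were at 0.042 and 0.24. Platelet markers, 3 of 7 measured and PF4 among them, averaged 8.21 to 8.64 in Holstein and 8.12 to 8.59 in Brahman, with overlap.

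The arrays themselves differed slightly between the breeds. Spike-in controls read 9.94 to 10.38 on Holstein and 9.64 to 9.80 on Brahman arrays, and the actin 3′ minus 5′ difference, a sign of RNA integrity, was 1.73 to 1.98 against 1.64 to 1.72. Both separate the breeds as several members do, and apart from the fits with the spike-in covariate their part was not tested. White cell markers fit the label in that T cell and B cell markers averaged at least 9.66 on every array. Erythroid markers (5 of 6 measured) averaged 5.62 to 6.06, with AHSP and SLC4A1 below the lower quartile. Probe sets named for liver, muscle and epithelial genes averaged 7.67 to 7.79, with MYH7 at 11.95 and ALB at 9.71, so a symbol in the annotation does not by itself show that a probe set measures that gene.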

How the data were processed

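White blood cell RNA of 6 cattle was measured on 1 array each. The deposited values are log2 expression values that the authors made with RMA (submitters' processing notes; the version was not in the sources). RMA adjusts background, equalises the arrays' distributions and summarises the probes, which hides any shift shared by most genes. Of 24128 probe sets, 112 array controls were left out and 24016 were fitted with limma 3.58.1 in R 4.3.3 (lmFit, eBayes), with breed as the only term. Adjustment was by Benjamini-Hochberg over all of them, two-sided, and members were read out of that fit. An exact permutation test of 3 against 3 arrays cannot give a two-sided p under 0.1 and was not used. The procedure was tested on simulated data.

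Symbols came from the platform annotation, and 32 of 33 member genes matched the RefSeq table of ARS-UCD2.0, used only for names and neighbours (at most 9 protein-coding genes between). The array's build was not named, so no coordinates are printed. Promoter and protein sequences were not used here. Lists for pathway genes and cell markers used 1 probe set per gene, the brightest. Members given with all values had an unadjusted p under 0.05 or a difference of at least 0.5, plus the other probe sets of those genes, and other values were named after being seen. The members and lists were chosen with earlier results of these data known. No detection calls were used, so a level under the lower quartile (5.08) counts as not shown to be above background. The number of arrays limits the precision. The alternatives were other normalisations, dim-probe filters, another prior, array weights, the replicate block, a spike-in covariate, 1 probe set per gene, and leaving out each array.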

Additional observations from a re-analysis of the deposited data

How the results depend on the processing

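The count of called members was 0 in every alternative except without Holstein 3, where it was 1, so leaving out 1 array gave 0 to 1, as it did for the called pathway genes (0 to 1). Without Holstein 3, 55 of all 24016 probe sets were called, against 33 with all arrays. The count of members at an unadjusted p under 0.05 was 11 with all arrays, 7 to 12 with each array left out and 5 with the spike-in covariate. Of all probe sets, 13.6% had such a p with all arrays, 9.64% to 16.0% with each array left out and 9.99% with the spike-in covariate. The count of members without overlap was 11 with all arrays and 12 to 18 with 1 left out, where fewer animals have to be separated. The share of all probe sets without overlap is not given for those fits, so the rise is not a result about the members. The median difference was 0.070, moved to -0.058 with the spike-in covariate, and ran from 0.040 to 0.10 with each array left out. GRO1 (1) turned to -0.078 with the spike-in covariate and ran from -0.023 without Holstein 2 to 0.19 without Holstein 3, and CCL25 (1) ran from -0.25 without Holstein 3 to 0.010 without Holstein 1. The other probe sets of genes with an unadjusted p under 0.05 or a difference of at least 0.5 kept the sign of their difference under the alternatives that were run, and of these CXCL10 without Holstein 3 was the only one that became called. The cause of these changes was not tested.

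The replicate numbers in the titles did not pair the arrays: same-numbered Holstein and Brahman arrays had correlations of deviations of 0.111, -0.043 and -0.074 over probe sets. With the replicate block 0 members were called and 10 had an unadjusted p under 0.05, as did 14.1% of all probe sets. With 3 arrays a breed, differences smaller than the intervals given could not be seen, and the 12 dim members could not be judged. A planned count of promoter motifs was not run.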
